A study of Drosophila melanogaster with 3 samples.

Results

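Binding of Lpt was examined at 8 genes that encode insulator and interband proteins of Drosophila melanogaster: Chro, pzg, BEAF-32, CTCF, su(Hw), Cp190, mod(mdg4) and Dref. The genes were taken by name from the 13945 protein-coding genes on the 6 large arms of the Ensembl annotation, each with its span and 5 kb on either side. Chromatin came from whole white prepupae, males and females together, of a transgenic line that stably expresses Lpt with GFP at its C terminus, and it was precipitated with an antibody to GFP. The 3 samples were biological replicates of this 1 group, with no untagged or input library analysed here. Lpt is a subunit of the COMPASS-like complex built around the methyltransferase Trr. In whole animals, a peak bound in few cells and a peak bound weakly in many cannot be told apart.

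Insulator proteins bind DNA at boundaries between chromatin domains and at promoters of active genes. CTCF, su(Hw) and BEAF-32 recognise DNA sequence, and Cp190 and mod(mdg4) are BTB domain proteins that join them as cofactors. Chro (Chromator) is a chromodomain protein and pzg (Z4) a zinc finger protein, and both mark the open interbands of polytene chromosomes. Dref binds the DNA replication-related element (DRE) at promoters of growth genes and is found in a complex with pzg. An IDR peak below is one that passed the authors' irreproducible discovery rate procedure, and a promoter summit is an IDR peak summit within 1 kb of an annotated transcription start site (TSS) of the gene. Signal is the value in the field that the peak format assigns to enrichment, and it was read as such because the caller is not known. Peaks were ranked by it within each list.

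The stretches below show the DNA at or beside the start sites described here. The first 4 are the gaps between a member and its divergent neighbour, for Chro and Cp190, which carried strong promoter peaks, and for pzg and Dref, which had no promoter peak in the IDR list. The next are the gap between internal start sites of mod(mdg4) within its strongest peak, 100 bp on either side of the summit in its first intron, and the 100 bp before the TSSs of CTCF and mod(mdg4), which hold a DRE. Sequences are from the RefSeq Release 6 genome (dm6) and read 5' to 3' on the strand given. Capitals mark TATCGATA (the DRE), CGATA (the core of BEAF-32 sites) and GAGAGAG (bound by the GAGA factor) on either strand. The Cp190 stretch runs 10 bases past its TSS to show the DRE there. The Cp190, pzg and first intron stretches hold the summit, and those of Chro, Dref and the internal mod(mdg4) starts end within 100 bp of it.
Ssl1 to Chro (chr3L:22878985-22879088, minus strand): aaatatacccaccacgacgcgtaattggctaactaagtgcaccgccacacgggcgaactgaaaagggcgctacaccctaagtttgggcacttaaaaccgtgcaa
CG4338 to Cp190 (chr3R:15275232-15275521, minus strand): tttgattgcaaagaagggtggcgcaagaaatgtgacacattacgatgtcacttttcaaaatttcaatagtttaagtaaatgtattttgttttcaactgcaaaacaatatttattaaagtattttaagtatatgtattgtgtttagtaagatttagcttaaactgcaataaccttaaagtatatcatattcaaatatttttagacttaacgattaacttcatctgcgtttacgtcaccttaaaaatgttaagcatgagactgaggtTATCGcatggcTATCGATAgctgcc
CG12974 to pzg (chr3L:21285963-21286098, plus strand): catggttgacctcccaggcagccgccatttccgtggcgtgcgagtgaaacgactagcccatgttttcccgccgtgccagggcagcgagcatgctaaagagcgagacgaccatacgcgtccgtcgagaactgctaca
RpL13 to Dref (chr2L:9967230-9967312, minus strand): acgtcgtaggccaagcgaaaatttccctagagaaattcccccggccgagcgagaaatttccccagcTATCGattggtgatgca
pre-mod(mdg4)-V to pre-mod(mdg4)-E (chr3R:21365489-21365608, minus strand): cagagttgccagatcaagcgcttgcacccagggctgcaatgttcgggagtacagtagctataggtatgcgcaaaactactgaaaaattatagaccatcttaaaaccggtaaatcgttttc
mod(mdg4) first intron (chr3R:21376359-21376559, minus strand): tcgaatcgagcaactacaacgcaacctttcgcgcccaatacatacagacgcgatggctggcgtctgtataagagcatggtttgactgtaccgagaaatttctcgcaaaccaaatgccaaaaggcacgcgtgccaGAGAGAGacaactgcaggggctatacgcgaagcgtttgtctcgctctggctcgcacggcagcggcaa
CTCF upstream (chr3L:7356714-7356813, minus strand): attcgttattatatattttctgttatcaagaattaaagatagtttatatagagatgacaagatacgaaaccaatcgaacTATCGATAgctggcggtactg
mod(mdg4) upstream (chr3R:21377402-21377501, minus strand): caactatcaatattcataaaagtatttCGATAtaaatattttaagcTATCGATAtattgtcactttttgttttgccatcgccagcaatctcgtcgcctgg

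Of the 8 genes, 4 had a promoter summit: Chro, Cp190, mod(mdg4) and BEAF-32. Over all coding genes the share was 19.2%. All 4 also had a promoter summit among the 6110 strongest peaks (as many as there were IDR peaks) of each of the 3 replicate lists, as did 12.9% of coding genes. With the gene body and 5 kb on each side, CTCF joined them, so that 5 of 8 genes held a summit, against 45.3% of coding genes. The pzg, su(Hw) and Dref windows held none. The windows held 9 IDR summits in 133 kb, or 6.75 per 100 kb, against 4.56 per 100 kb over the 6 arms. All 9 summits lay within 1 kb of an annotated TSS of some gene, as did 47.3% of all IDR summits. The windows are set around genes, and the arms also hold sequence far from genes. Neither comparison is therefore like for like. Of the 9 summits, 5 lay near a TSS of the member itself. The other 4 lay near TSSs of neighbouring or overlapping genes. Of the 9, 7 overlapped one of the 6110 strongest peaks in all 3 replicates, the exceptions being in the CTCF window and downstream of mod(mdg4). The members had a median length of 4174 bp (2166 bp over coding genes) and a median of 1 TSS, the same as over coding genes. Chro and BEAF-32 had 3 TSSs and Cp190 had 2, which give a summit more places to count, and the other members had 1. With the outermost TSS alone, the same 4 genes had a promoter summit. With 8 genes chosen by name and no control, these counts are a description and were not tested.

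**Figure D1:**
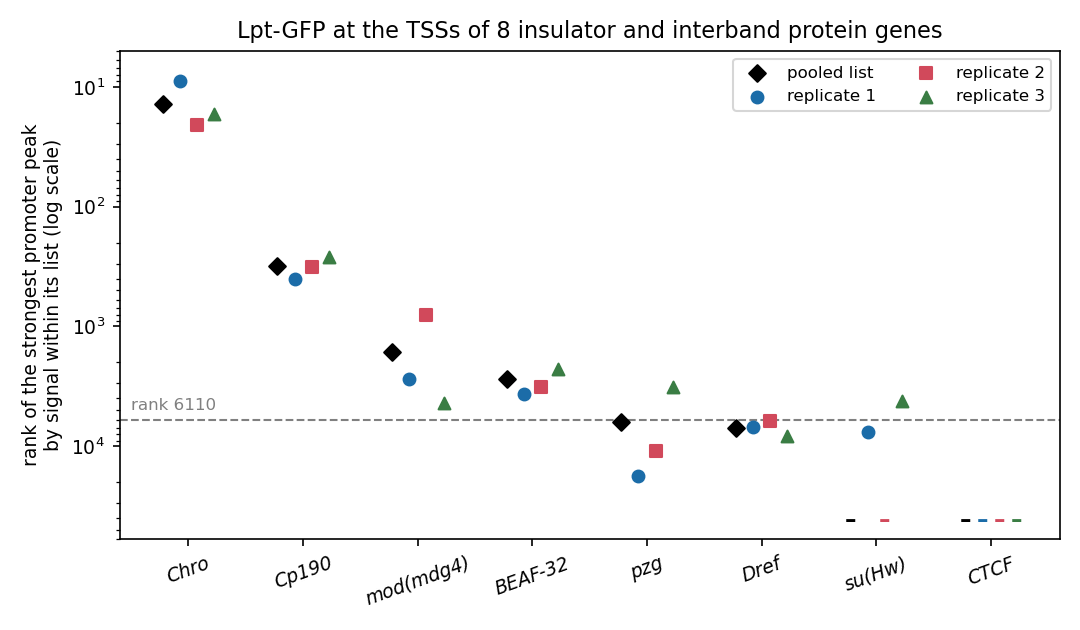
Rank by signal (log scale, strongest at the top) of the strongest peak or background region with its summit within 1 kb of a TSS of each gene, in the pooled list and in replicates 1, 2 and 3. The dashed line marks rank 6110, the number of IDR peaks, and a dash at the bottom stands for a list with no such summit. Chro ranks 9 to 21 in the replicates, Cp190 262 to 406, and CTCF has no promoter summit in any list.

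Chro stood apart from the other members. Its only summit ranked 14 of 6110 IDR peaks (3L:22878722-22879073, signal 1399), and 10th among coding genes by strongest promoter peak, a place it shares with Ssl1. The signal was 462, 507 and 426 in replicates 1, 2 and 3, which were ranks 9, 21 and 17 of those lists (465 ± 40.6, SD, n = 3). Divided by the median signal of its list, it was 24.95, 20.3 and 25.6. The 3 replicate summits lay within 15 bp of each other, where the median range over the 5921 IDR peaks found in every replicate was 57 bp. The summit fell in the 5' UTR, 88 bp downstream of the outermost of 3 Chro TSSs and 128 bp upstream of the next. On the other side, 193 bp away, starts Ssl1, a subunit of the general transcription factor TFIIH, on the other strand and 105 bp from the outermost TSS of Chro. The peak spans that TSS of Chro and ends short of the one of Ssl1. No other IDR summit lay in the gene or the 5 kb around it. The next strongest peak of the pooled list in that window had signal 57.8 and rank 14029.

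Cp190, the BTB cofactor shared by several insulator complexes, had the second strongest promoter peak of the members (3R:15275267-15275513, signal 523, rank 311). Replicates 1, 2 and 3 gave 144, 216 and 167, at ranks 406, 317 and 262 (176 ± 36.7, SD, n = 3). The summit lay outside both genes of a divergent pair, 145 bp upstream of Cp190 and 136 bp upstream of CG4338, whose TSSs are 281 bp apart. Replicate summits agreed within 18 bp. The Chro and Cp190 peaks were narrow, with 352 and 247 bp, where 17.7% of IDR peaks were narrower than the usual 436 bp. A peak upstream of mod(mdg4), near the TSS of tin, was narrower still, with 149 bp. Cp190 was 263rd among coding genes by strongest promoter peak.

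Among 4644 coding genes with a peak summit within 1 kb of a TSS in all 3 replicate lists, of any strength, those whose replicate ranks were most like those of Chro were Ssl1, which shares the peak, then ph-p, a Polycomb group gene (ranks 11, 19 and 13), and Hsp27, a small heat shock gene (7, 14 and 10). The distance of log10 ranks over the 3 samples was 0.15 for ph-p and 0.31 for Hsp27. For Cp190 they were CG4338, which shares the peak, AMPdeam, an AMP deaminase gene (ranks 428, 361 and 276, distance 0.06), and spri (367, 292 and 319, distance 0.10).

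The mod(mdg4) gene held 4 summits in its window, the most of the 8. It is 26556 bp long and is known for trans-splicing, in which a shared 5' part is joined to one of many 3' parts transcribed separately, several of them from the opposite strand. The annotation lists 23 such 3' units, named pre-mod(mdg4), which start at 6 positions inside the gene. The strongest peak (3R:21365244-21365679, signal 457, rank 441) lay in an intron of mod(mdg4) at the start sites of these units, 11939 bp downstream of the main TSS. Its signal was 141, 165 and 159 in replicates 1, 2 and 3, at ranks 432, 624 and 305 (155 ± 12.8, SD, n = 3), and the replicate summits lay within 14 bp of each other. The IDR summit was 26 bp inside pre-mod(mdg4)-E, 172 bp upstream of pre-mod(mdg4)-C and -AB on the same strand, and 147 bp upstream of 7 units that include pre-mod(mdg4)-V and run the other way. Thus 10 of the 23 units, at 3 of the 6 start positions, had an IDR summit within 1 kb, and the other units had none. All 10 were counted through this 1 peak, and units that share a start position were counted separately. Over coding genes without these units the share with a promoter summit was 19.2%.

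The shared 5' part had a weaker and less even peak. It lay in the first intron, 942 bp downstream of the TSS (3R:21376241-21376676, signal 244, rank 1640), so it counts as a promoter summit only by a margin of under 100 bp. Replicates 1, 2 and 3 gave 57.7, 149 and 37.5 (81.5 ± 59.5, SD, n = 3), at ranks 2759, 807 and 4389. Replicate 2 was the highest, also after division by the list medians (3.12, 5.96 and 2.25). The coefficient of variation of the undivided signal was 73.1%, against 8.25% at the internal start sites and a median of 27.8% over the IDR peaks found in all replicates. Divided by the list medians, the internal start sites gave 7.60, 6.61 and 9.52 (7.91 ± 1.48, SD, n = 3), and the first intron 3.78 ± 1.94. The difference in evenness was then smaller. At the TSS itself, the pooled list had a peak of signal 64.7 at rank 12288, which was no IDR peak. Upstream, 1360 bp from the TSS of mod(mdg4) and 216 bp from that of tin, a homeobox gene of heart development, stood a peak of signal 365 (rank 730, 122 ± 34.6 in the replicates, SD, n = 3). The last summit lay in the 3' flank in the 5' UTR of the next gene, aus, at rank 6067 of 6110. It had overlapping peaks in replicates 1 and 2 (35.1 and 63.5) and none in replicate 3.

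**Figure D2:**
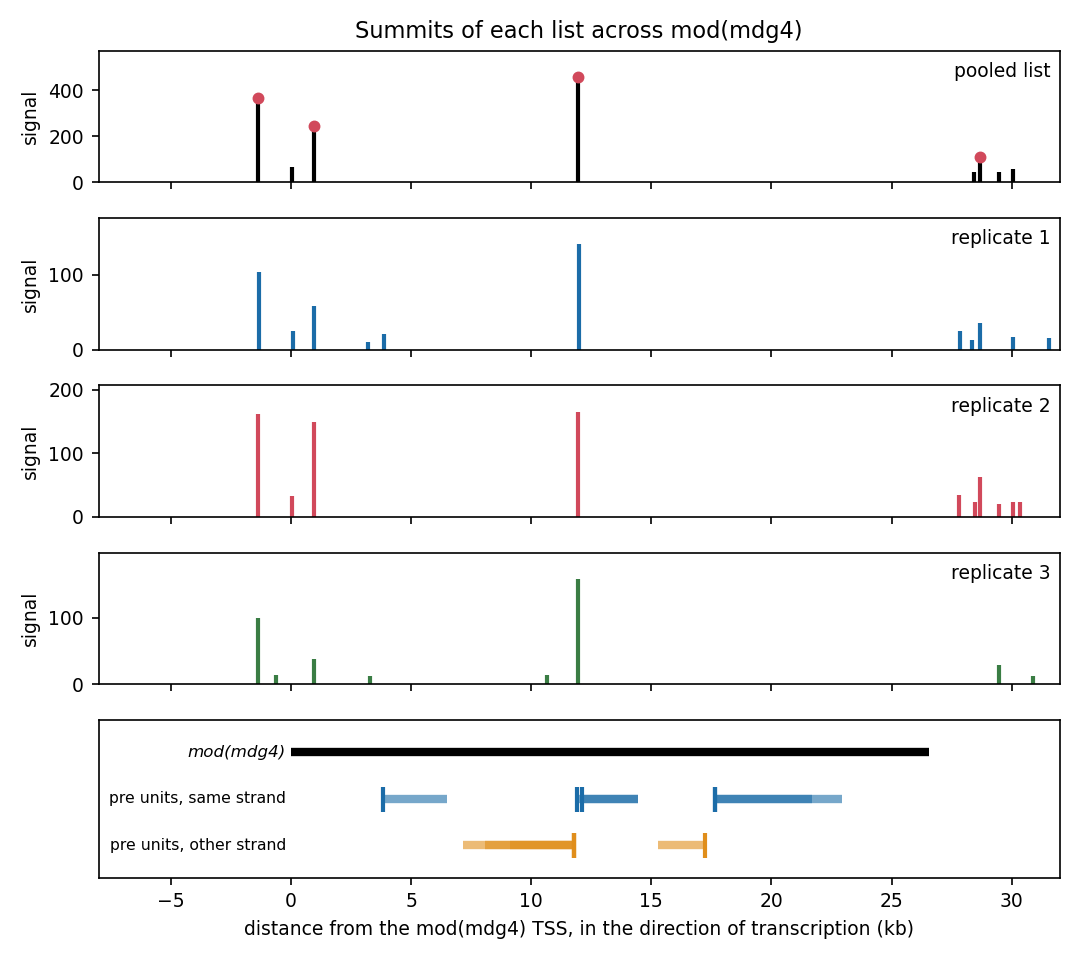
Signal of each peak (vertical lines, at the summit) across mod(mdg4) and 5 kb on each side in the pooled list and in replicates 1, 2 and 3, against distance from the TSS in kb. Signal axes differ between lists. Red points are IDR peaks. The lowest panel shows the gene and the trans-spliced units on each strand, with a tick at each start. The tallest line of every list stands at 11.9 kb in the pooled list and within 50 bp of it in the replicates, beside start sites of both strands.

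BEAF-32, which binds CGATA at many promoters, had a pair of moderate peaks. The gene is short (2R:14770469-14772630) with 3 TSSs over 832 bp. The stronger peak (2R:14770912-14771347, signal 182, rank 2729) lay inside the gene, 171 bp upstream of the innermost TSS, and the other (2R:14770157-14770592, signal 141, rank 4141) 94 bp upstream of the outermost TSS. The stronger gave 48.8, 73.7 and 58.3 in replicates 1, 2 and 3 (60.3 ± 12.6, SD, n = 3), and the other 47.9, 51.1 and 50.5 (49.8 ± 1.72, SD, n = 3). The ranks were 3709, 3195 and 2263 for the stronger and 3815, 5908 and 2805 for the other. Divided by the list medians, the stronger gave 2.64, 2.95 and 3.50 and the other 2.59, 2.04 and 3.03 (2.55 ± 0.495, SD, n = 3). The weaker peak was thus less even than its raw values, which come from lists of different scale. The replicate summits ranged over 73 and 114 bp, both wider than the median of 57 bp over IDR peaks. An antisense noncoding RNA, asRNA:CR42254, has annotated TSSs near both, 165 bp from the stronger summit and 105 bp from the other. The TSS of Spred, which encodes an inhibitor of Ras signalling, lies 952 bp from the summit of the weaker peak. BEAF-32 was 1449th of the 2682 coding genes with a promoter summit.

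**Figure D3:**
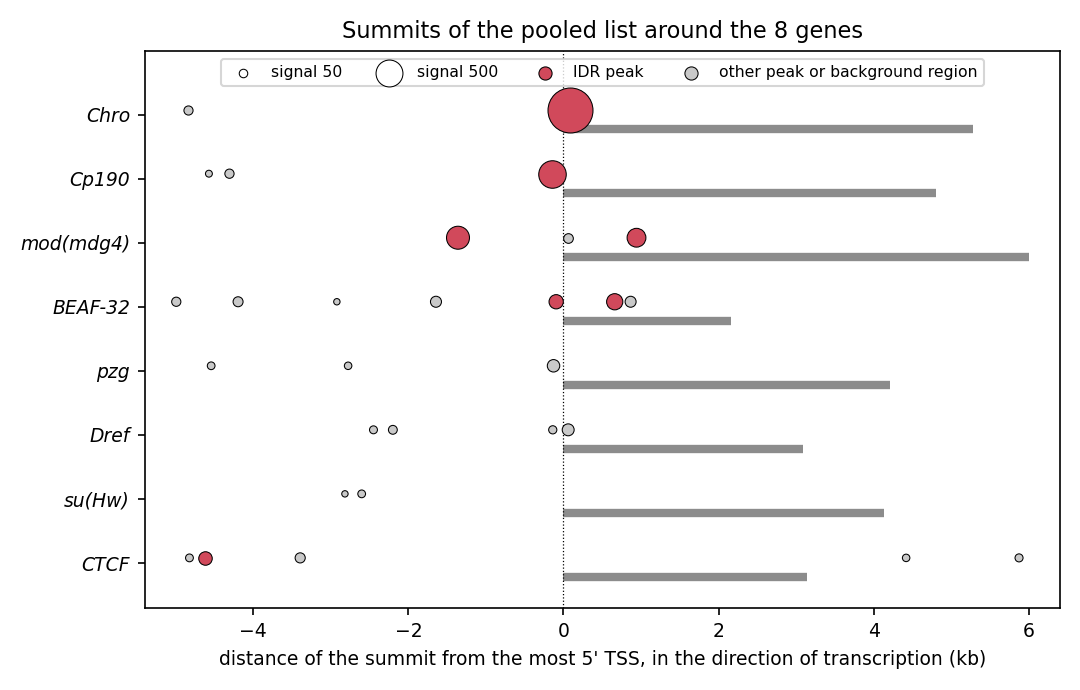
Summits of the pooled list from 5 kb upstream to 6 kb downstream of the most 5' TSS of each gene, with circle area proportional to signal. Red circles are IDR peaks, grey circles are other peaks or background regions, and grey bars are the genes, drawn to 6 kb at most. The IDR summits of Chro and Cp190 lie beside the TSS, BEAF-32 has 2, and the only one in the CTCF window lies 4617 bp upstream.

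The promoters of pzg and Dref had an entry in the pooled list and in every replicate list, but none in the IDR list. These lists hold background regions as well as peaks, so the authors' −log10 q-values are given for the weakest entries. The weakest IDR peak had a signal of 109.5. At pzg the pooled peak had a signal of 107.1, 208 ranks past the 6110th peak of that list, 128 bp upstream of the TSS and within the gap to the divergent gene CG12974. The replicates differed: 16.0 in replicate 1 (rank 17895, −log10 q-value 0.655), 33.1 in replicate 2 (rank 10896) and 46.4 in replicate 3 (rank 3209), a mean of 31.8 ± 15.2 (SD, n = 3). The replicate 1 entry was below the median of its list (0.863 of it). Only in replicate 3 was it among the 6110 strongest. At Dref the pooled signal was 98.2 at rank 7124, 61 bp downstream of the TSS, and replicates 1, 2 and 3 gave 32.9, 49.6 and 23.7 (35.4 ± 13.1, SD, n = 3), at ranks 6942, 6196 and 8311. None of these was among the 6110 strongest of its list, and the replicate 3 entry had a −log10 q-value of 0.956. Dref starts 84 bp from RpL13, a ribosomal protein gene on the other strand.

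Promoters of su(Hw) and CTCF showed the least. At su(Hw), which encodes the protein of the gypsy insulator, replicate 1 had a peak of 30.8 (rank 7653) 343 bp upstream of the TSS and replicate 3 one of 38.7 (rank 4188) at 271 bp, both in the 500 bp gap to Polr2I, an RNA polymerase II subunit gene. Replicate 2 and the pooled list had no summit within 1 kb. CTCF had no summit within 1 kb of its TSS in the pooled list or in any replicate. The single IDR summit of its window (3L:7361112-7361547, signal 126, rank 4924) lay 4617 bp upstream in an intron of Sec63, 769 bp from the TSS of that gene. Replicates 1, 2 and 3 gave 41.3, 67.0 and 23.4 there (43.9 ± 21.9, SD, n = 3), at ranks 4844, 3800 and 8452. Replicate 3 was the lowest, with a −log10 q-value of 0.924, and the replicate summits ranged over 225 bp. The replicate 3 summit (3L:7361545) lay at the edge of the IDR peak, close to a separate pooled entry (signal 42.2, rank 19602). The strongest replicate 3 peak of the window was another one, nearer to CTCF (signal 32.9, rank 5287). When 1 replicate was left out, IDR peaks had to overlap the 6110 strongest of the other 2 lists. The CTCF window then held no IDR summit without replicate 1 or without replicate 2.

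In the single replicate lists, the 6110 strongest peaks gave a promoter summit to 4, 4 and 6 of the 8 genes in replicates 1, 2 and 3, the last through pzg and su(Hw). Over all coding genes the shares were 19.6%, 19.2% and 19.3%. Divergent promoters were frequent in the group: 5 of the 8 genes (Chro, Cp190, pzg, Dref and su(Hw)) had a coding TSS on the other strand within 1 kb upstream, against 33.3% of coding genes. Of these 5, 2 had a promoter summit, against 26.9% of all coding genes of that kind. Of the other 3, 2 had one (mod(mdg4) and BEAF-32), against 15.4%.

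Sequence motifs were counted on both strands within 100 bp of each summit and from 250 bp before to 50 bp after the outermost TSS. Every DRE match also holds CGATA. The DRE was in the promoters of 4 members (BEAF-32, CTCF, Cp190 and mod(mdg4)) and in 9.37% of all coding promoters. Its centre was at the TSS of Cp190 and 17, 50 and 206 bp upstream of those of CTCF, mod(mdg4) and BEAF-32, as the stretches above show for Cp190, CTCF and mod(mdg4). None of the 9 member summits had a DRE within 100 bp, and 1.10% of all IDR summits did. The DRE of BEAF-32 lay inside the weaker BEAF-32 peak, but more than 100 bp from its IDR summit. CGATA was in 6 of 8 member promoters (47.5% of all promoters) and near 2 of 9 summits (20.2% of IDR summits), with 1 match centred 2 bp from the Chro summit. GAGAGAG was near 1 of the 9, in the first intron of mod(mdg4), 37 bp from the summit, against 8.23% of IDR summits. GGTCACACT, the motif of M1BP, was in the su(Hw) promoter alone (6.05% of promoters) and near none of the 9 summits (0.491%). AGNNGGCGC for CTCF and TGCATAC for su(Hw) were in none of the member promoters (2.83% and 3.21% of all) and near none of the summits (1.95% and 3.58%). The GC content within 100 bp of the summits went both ways around the median of 36.3% over IDR summits. It was lower at 5 of the 9: 24.4% at Cp190, 25.4% and 30.3% at BEAF-32, and 30.3% and 30.8% at the internal starts of mod(mdg4) and beside tin. It was higher at the other 4: 38.3% at Chro, 53.7% in the first intron of mod(mdg4), 46.8% downstream of mod(mdg4) and 48.3% in the CTCF window.

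Genes of proteins that work with the 8 were read in the same way. Of 34 such genes in 5 lists, 9 had a promoter summit (26.5%) and 12 a summit in the gene or its flanks (35.3%), against 19.2% and 45.3% of coding genes. DNA-binding insulator proteins had one in 2 of 12: Trl, the GAGA factor (signal 426), and M1BP, the motif 1 binding protein (246, with 55.2, 95.2 and 99.2 in replicates 1, 2 and 3). ZIPIC, pita, Ibf1, Ibf2, dwg, Elba1, Elba2, Elba3, insv and Clamp had none. Cofactors of insulators had one in 5 of 8. The strongest was at shep, an RNA-binding antagonist of the gypsy insulator (697, rank 136, 222 ± 68.4 in the replicates, SD, n = 3), a gene of 122124 bp with 5 TSSs, which give a summit more places to count. The next were Rm62, a DEAD-box helicase (205), Cap-H2, a condensin II subunit (193), and e(y)2, a subunit of SAGA and of the mRNA export complex (170.0). Cohesin genes and the loader Nipped-B had none in 5. JIL-1, the kinase that binds Chro in interbands, had one at 117 (rank 5528), the only one of 4 interband and NSL genes. Trf2, the TBP-related factor of the Dref complex, had one at 170.5, the only one of 5 partners of Dref and pzg.

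**Figure D4:**
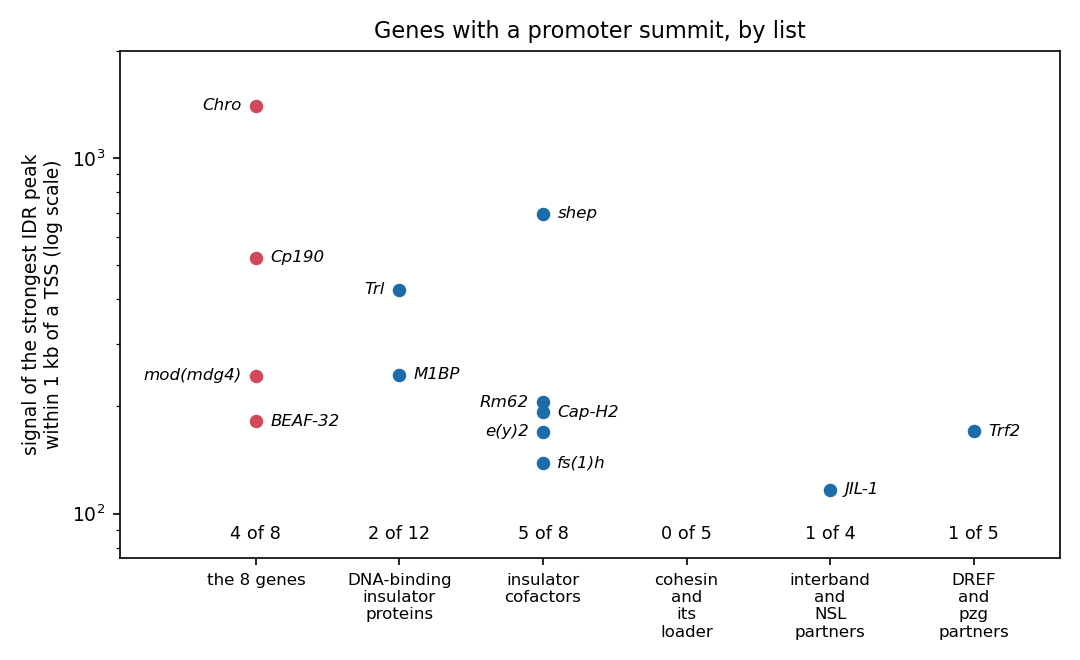
Signal (log scale) of the strongest IDR peak within 1 kb of a TSS for each gene that had one, in the 8 genes (red, left) and in 5 lists of genes that work with them (blue). The count at the foot of each column is genes with a promoter summit of all genes in the list. Chro, at 1399, is above the strongest gene of the other lists, shep, at 697.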

How the data were processed

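The labels give 3 biological replicates of 1 group, numbered as there. The authors deposited dm6 narrowPeak lists: per the file descriptions, each replicate list and the pooled list (30000 peaks and background regions, 27893 in replicate 3) were derived from alignments and 1 further file, and the IDR list of 6110 peaks from those lists. Which aligner, caller and IDR cutoff were used is not given in the sources used here. Peaks carry a signal, a −log10 q-value and a summit offset, all set by the authors. Signal scales differ between lists (median 18.5, 25.0 and 16.7 in replicates 1, 2 and 3), and SDs include this. The number of reads is unknown. All IDR peaks were in the pooled list with equal signal, and 6098 were among its 6110 strongest.

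From these lists, summits (1-based) were set against the Ensembl release 115 annotation without transposable elements. All peaks lay within the arms of the RefSeq Release 6 genome. A summit counts for every gene it is near. The value in a replicate is that of the strongest peak that shares at least 1 base with the IDR peak, or, for promoters, with its summit within 1 kb. Named are the 8 members, coding genes at their promoter summits, up to 4 genes per list with a promoter summit, and 3 genes most alike in replicate ranks for each of the 2 members with the strongest promoter peak. Other genes at summits were added after their values were seen. The members, lists and motifs were chosen with earlier results of these data known. One list symbol was updated (SA to SA1). No test was made, since there is 1 group and a control was not analysed here. The assignment code was checked on simulated summits placed at known distances from TSSs. That checks the distance rule alone, and not which gene a summit belongs to. The dm3 lists were not used. Values were computed with pandas 2.3.3 and numpy 2.4.6 in Python 3.11.15, and plots drawn with matplotlib 3.10.9.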

Additional observations from a re-analysis of the deposited data

How the results depend on the processing

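The 4 genes with a promoter summit were the same 4 in 9 of the 10 alternatives tried: without replicate 1, 2 or 3 (keeping IDR peaks that overlap the 6110 strongest of both others), in the upper 50% of the IDR list, with overlap of 1 base or 50% of the peak in all 3 replicates, in the 6110 strongest pooled peaks, within 2000 bp of a TSS and with the outermost TSS alone. Within 500 bp, mod(mdg4) dropped out and 3 remained. Several alternatives could not have dropped any of the 4. Their promoter peaks already overlapped the 6110 strongest of all 3 replicates, which fixed the outcome without 1 replicate and with overlap of 1 base. Those sets also start from the IDR list made with all 3 replicates. The 6110 strongest pooled peaks include 6098 IDR peaks, and 2000 bp takes in the 1 kb used above. The number of genes with a summit in the window was 4 to 6, with CTCF lost without replicate 1 or 2, in the stricter sets and with flanks of 1 or 2 kb, and Dref added with flanks of 10 kb. The 9 summits became 6 to 8 in the other settings that changed them and 17 with flanks of 10 kb, which take in more sequence. The share of coding genes with a promoter summit was 13.2% to 14.8% with 1 replicate left out, 11.5% in the upper part, 12.5% and 11.9% with overlap in all 3 replicates, 15.9% within 500 bp and 24.6% within 2000 bp, where each stricter set has fewer peaks by construction. Of 20 rank comparisons for the strongest summit in each window, 5 moved by more than the SD of the replicate ranks. The widest was that of CTCF (4924 in the IDR list and 8452 in replicate 3). There the replicate 3 entry had its summit at the edge of the IDR peak. This count does not measure stability, because the SD comes from the same replicate ranks that are compared. The pooled ranks could not move either, since IDR peaks carry the pooled signal. The number of reads is unknown and a control was not analysed here, so enrichment unrelated to Lpt-GFP was not measured.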
